A study of Mus musculus with 6 samples.

Results

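Gatad2b and 9 of its partners in the nucleosome remodelling and deacetylase (NuRD) complex were followed in lymphatic endothelial cells of the mouse meninges. The members were taken by name: Gatad2a, Gatad2b, Chd3, Chd4, Hdac1, Hdac2, Mbd2, Mbd3, Mta1 and Mta2, which are 10 of the 22964 genes in the deposited table, each with a single row. Gatad2b was chosen by its count of 0 in every old sample, and the others by name as its partners, so its values are given as a description with no test, and the question was whether its partners shared that 0. The cells came from wild-type male C57BL/6J mice (the design text has C57BL/6) and were sorted as CD45-CD31+PDPN+, that is, without the leukocyte protein CD45 and with the endothelial protein CD31 and podoplanin. There were 3 young samples from mice aged 2 to 3 months and 3 old samples from mice aged 20 to 24 months, none treated, with RNA amplified linearly before sequencing. Young and old mice came from Jackson Labs or the NIH/NIA, and the labels do not say which sample had which source. Whether a sample is 1 animal, a pool or a repeat of another is not stated. The p-values therefore rest on the spread among samples alone, and that spread may be technical.

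NuRD joins a chromatin remodelling ATPase to histone deacetylases and is best known for turning genes down at enhancers and promoters. Its deacetylase arm holds HDAC1 or HDAC2 with MTA scaffold proteins and the histone chaperones RBBP4 and RBBP7. GATAD2A or GATAD2B, through a coiled coil with MBD2 or MBD3, ties that arm to CHD3, CHD4 or CHD5, the remodelling ATPases. Alternative paralogues replace one another in a given complex, MBD2 binds methylated DNA where MBD3 largely does not, and in endothelium Chd4 is known for guarding vessel integrity.

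The sequences of Gatad2b and its paralogue Gatad2a were compared first, because an estimated count of 0 depends on whether reads of the pair can be told apart. Gatad2b (ENSMUSG00000042390) lies on chromosome 3, 90293178 to 90363407, plus strand, and Gatad2a (ENSMUSG00000036180) on chromosome 8, 69907076 to 69996384, minus strand, in GRCm38 by the GENCODE M21 annotation. Their coding sequences, of 1782 and 1890 bases without the stop codon, were 65.7% identical over 1644 aligned bases and shared 0 words of 31 bases. Their longest identical run in that alignment was 12 bases. Over all annotated transcripts of Gatad2b, 96.9% of the 11517 words of 31 bases occurred in no other annotated gene. No other gene held more than 1.89% of its words, and that gene, 4930537H20Rik, has no row in the table. Which annotation the authors gave to Salmon is not stated.

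The 6 libraries held 14285794 to 21043945 estimated counts, and 18086, 18811 and 18949 genes had a count in young samples 1, 2 and 3 against 17074, 17995 and 17472 in the old. Every old library thus detected fewer genes than every young one, and 1859 of the genes tested were at 0 in at least 1 old library against 1082 in at least 1 young one. The part of this in the 0 of Gatad2b was not tested. Lymphatic endothelial markers, namely Prox1, Lyve1, Pdpn, Pecam1, Flt4, Ccl21a, Mmrn1 and Reln, were present in every library, with summed levels of 10098 to 12596 CPM in young and 15889 to 19257 CPM in old samples. CPM, counts scaled to a common depth, are the estimated counts scaled to library sizes adjusted by the trimmed mean of M-values (TMM). Transcripts of other cell types were present too, and their levels are given below.

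Gatad2b was present in every young sample and listed at 0 in every old one. Its estimated counts were 237, 736 and 1136 in young samples 1, 2 and 3, against 0 in each old library. On the CPM scale the young samples had 14.7, 37.4 and 51.1, with a mean of 34.4 ± 18.4 (SD, n = 3). Young sample 1 was the lowest, 3.48-fold under young sample 3, and the groups did not overlap. A count of 0 allows up to 3 counts in a library, which is 0.224, 0.218 and 0.146 CPM in old samples 1, 2 and 3, for counting error only. Against that floor in each old library, the mean listed level was at least 175-fold lower in the old samples. From the lowest young sample to the highest old floor it was at least 65.5-fold lower. Both bounds leave out the spread between libraries. The common biological coefficient of variation, a measure of that spread over the genes tested, was 90.1%. Since the values are rounded estimates from Salmon, a 0 can also stand for a fraction of a read. Whether the listed 0 reflects the cells or the steps from RNA to estimated counts was not tested and cannot be told from a table per gene.

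**Figure D1:**
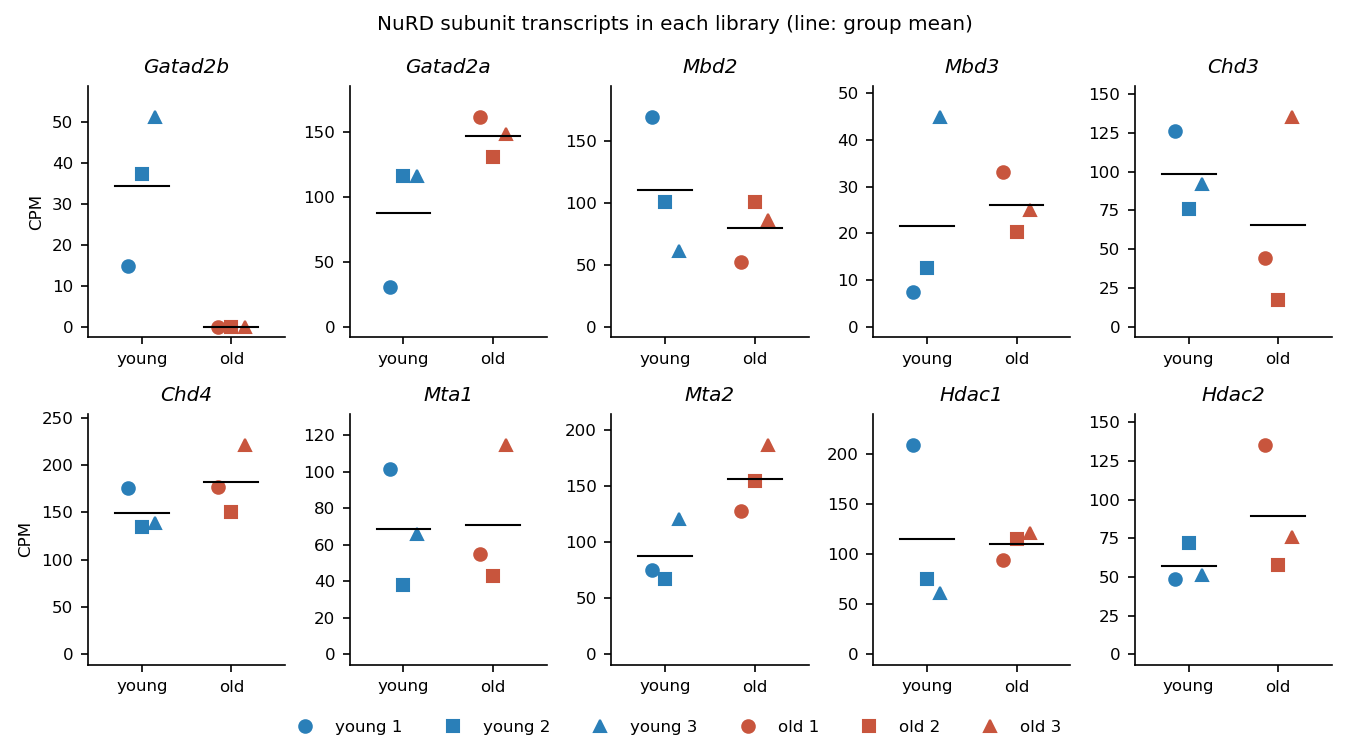
Level of each of the 10 NuRD subunit transcripts in CPM (y axis, linear from 0) in the 3 young and 3 old libraries (points, shaped by sample number), with a line at each group mean. Gatad2b sits at 0 in all 3 old libraries, whereas each of the other 9 genes is above 0 in all 6.

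A 0 of this kind was rare at the level of Gatad2b. The choice of Gatad2b by its 0 fixed its place among such genes, so its rank and the shares here are a description and no test. In the whole table, 164 of 22964 genes (0.714%) were at 0 in all 3 old samples and above 0 in all 3 young ones. Among the 15394 genes that passed the filter on low counts the share was 0.188%. Gatad2b had the highest young mean CPM of the 164. With 1 library left out it ranked from the first to the third place among 304 to 454 such genes. The reverse pattern, 0 in all young and above 0 in all old samples, was held by 48 genes, of which 0 had an old mean at or above the young mean of Gatad2b. Among the other 2883 genes whose young mean lay within 1.5-fold of its own, 56 were at 0 in at least 1 old sample, 8 in at least 2 and 2 in all 3. Single old samples 1, 2 and 3 had 36, 11 and 19 of those genes at 0.

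The 5 genes of the same pattern with the next highest young means were Rsc1a1, Gm13717, Nudt11, Gm20605 and Kcng4. Rsc1a1 had 649, 216 and 550 counts in the young samples, but 100% of its words of 31 bases also occur in Ddi2. Gm20605 had 67, 117 and 614 counts and shared 94.0% of its words with other genes. Estimates for such overlapping genes depend on how Salmon splits reads, and they are uncertain. Kcng4, a potassium channel subunit gene, had no shared words and 318, 34 and 54 counts. Nudt11, a phosphohydrolase gene with a near copy, Nudt10, had 21, 610 and 154 counts, and Nudt10, which shares 19.0% of its words, had 656 counts in old sample 1. The lowest young count of Gatad2b, 237, was above that of each of these 5 genes, the closest being Rsc1a1 with 216.

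**Figure D2:**
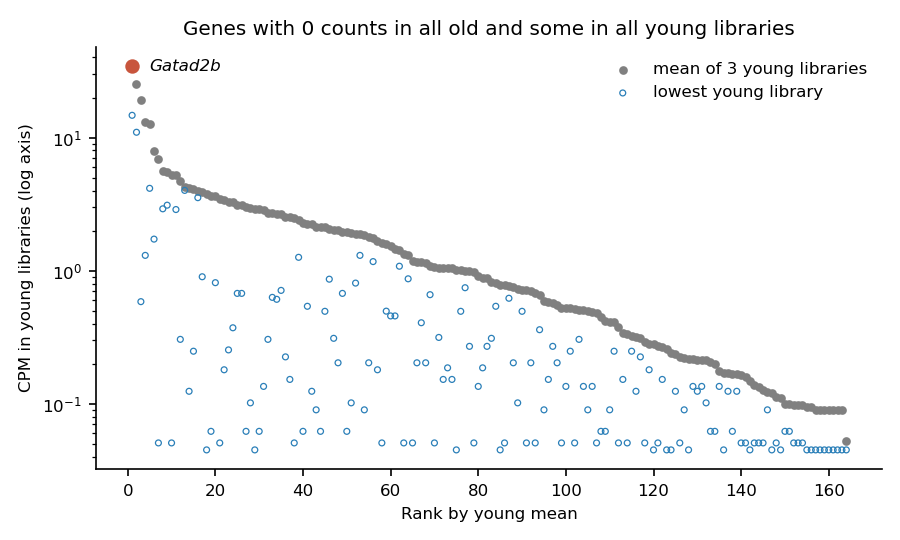
Young level in CPM (log axis) of the 164 genes that had 0 counts in all 3 old and at least 1 in all 3 young libraries, ranked by young mean (filled) with the lowest young library (open). Gatad2b, in red, has the highest mean, 34.4 CPM.

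None of the 9 partners shared the 0 of Gatad2b. All 9 had counts in all 6 samples, from 121 for Mbd3 in young sample 1 to 4529 for Chd4 in old sample 3, and the lowest count of any partner in an old sample was 238, for Chd3. Of the 5686 genes with a young mean in the range of the partners, 3 (0.0528%) were at 0 in all 3 old samples, Gatad2b among them, and 79 (1.39%) were at 0 in at least 1. The partners' 0 of 9 is close to that background.

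No partner passed the test between ages. EdgeR's quasi-likelihood test with Benjamini-Hochberg adjustment called 0 of the 9, and it called 0 of all 15394 genes tested (0%). The 0 calls given below for other gene lists therefore do not set those lists apart from all genes. At an unadjusted p under 0.05 it counted 1 of the 9, Mta2, against 856 of all genes (5.56%). That count fell to 0 with library size as the only scaling and when young sample 1, the second young library or the second old library was dropped. With old sample 3 dropped, the 1 gene was Chd3. DESeq2 called 0.844% of all genes and limma-voom 0.0195%, and each called 0 of the 9. The partners' log2 fold changes, old against young, had a median of 0.27, with 6 above and 3 below 0, beside 0.02 over all genes tested. With Gatad2b at its bound, the median over 10 members was 0.16.

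Gatad2a, the paralogue that can take the place of Gatad2b between the MBD and CHD proteins, was higher in every old sample than in every young one. Its levels were 30.3, 116 and 116 CPM in the young and 161, 131 and 148 CPM in the old samples, in the order of the sample numbers. Young sample 1 stood far below the other young samples, as it did for Gatad2b. Its log2 fold change was 0.74 (SE 0.49, edgeR adjusted p = 0.918), and 0.34 without young sample 1. Groups did not overlap with old above young for 2 of the 9 partners, Gatad2a and Mta2, and for 5.56% of all genes tested. Levels per kilobase of annotated exon give a rough scale between genes, since whether counts here grow with exon length was not tested. On that scale Gatad2b made up 19.1%, 13.6% and 17.7% of the level of the pair in the young libraries, by sample number. It made up 0% in every old library, which the choice of Gatad2b fixed. The young samples thus kept a narrow range of shares although the sum of the pair ran from 6.71 to 25.2 CPM per kb. In the old samples the sum was 23.4 to 28.9 CPM per kb, all of it Gatad2a, and 2 of the 3 old sums lay above every young one.

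Mbd2 and Mbd3, the methyl-CpG-binding domain proteins that define alternative forms of NuRD, overlapped between ages. Mbd2 had 169, 101 and 61.2 CPM in the young and 51.8, 100.3 and 85.8 CPM in the old samples. Young sample 1 was the highest and old sample 1 the lowest of the 6. By group mean, Mbd3 had the lowest level of any partner on the CPM scale at both ages, although Chd3 was lower in old sample 2. Mbd3 had 7.51, 12.5 and 44.8 CPM in the young and 33.2, 20.2 and 24.9 CPM in the old samples. The young samples spread 5.97-fold and enclosed all 3 old ones. The share of Mbd3 in the pair, per kb, was 6.71% to 54.2% in young and 24.6% to 50.9% in old samples. The log2 fold change of Mbd2 was −0.47 (SE 0.46), and −0.03 without young sample 1. That of Mbd3 was 0.27 (SE 0.80), and 1.37 without young sample 3, −0.13 without young sample 1 and −0.0083 without young sample 2.

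Chd4 was the steadiest member and Chd3 the most scattered partner. Chd4 (chromosome 6, 125095981 to 125130591, plus strand), the main remodelling ATPase of NuRD in most tissues, had 175, 134 and 139 CPM in the young and 176, 150 and 221 CPM in the old samples, a 1.65-fold range over all 6. The groups overlapped, with a log2 fold change of 0.29 (SE 0.28, edgeR adjusted p = 0.949). Chd3 (chromosome 11, 69343273 to 69369406, minus strand), the alternative ATPase, had 127, 76.1 and 92.2 CPM in the young and 44.1, 17.3 and 135 CPM in the old samples. Old samples 1 and 2 were below every young sample and old sample 3 above every one, so the 7.81-fold range lay within the old group. Its log2 fold change was −0.58 (SE 0.67, edgeR adjusted p = 0.952), and −1.68 without old sample 3 and −0.13 without old sample 2. The share of Chd3 in the pair per kb was 40.7%, 35.03% and 38.7% in the young libraries, by sample number, and 19.2%, 9.87% and 36.7% in the old.

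**Figure D3:**
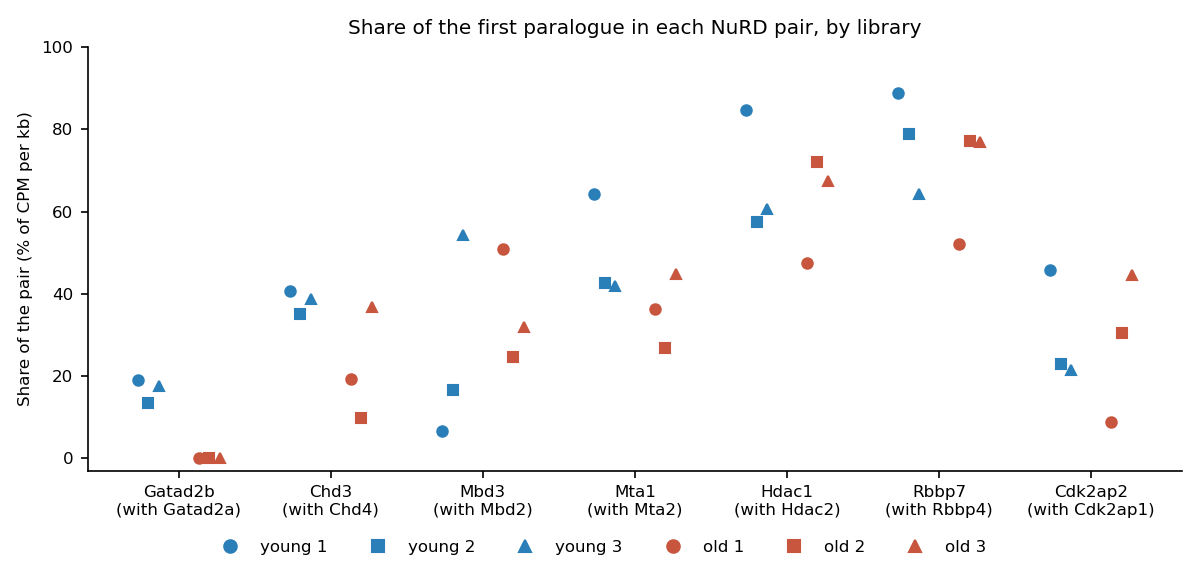
Share of the first-named paralogue in the per-kilobase level of 7 NuRD pairs (y axis, percent) in each young and old library (points). The Gatad2b share is 13.6% to 19.1% in young libraries, and its 0% in old ones follows from the choice of the gene. The other 6 pairs overlap between the ages.

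Mta2 had the largest log2 fold change of the 9 partners by edgeR on all 6 samples, and in 7 of the 13 alternatives. Gatad2a was ahead of it in limma-voom, with the sample number as a block and without young sample 2, Mbd3 without young sample 3, and Hdac2 without old sample 2 or old sample 3. The MTA proteins form the scaffold that holds the deacetylases. Mta2 (chromosome 19, 8941875 to 8952303, plus strand) had 74.8, 67.1 and 120 CPM in the young and 128, 154 and 186 CPM in the old samples. Every old sample was above every young one, although old sample 1 and young sample 3 were close. The means were 87.4 ± 28.7 and 156 ± 29.3 CPM (SD, n = 3 each), with a log2 fold change of 0.84 (SE 0.35, edgeR adjusted p = 0.888). Mta1, the alternative scaffold, had 102, 37.8 and 65.8 CPM in the young and 55.2, 42.9 and 115 CPM in the old samples and overlapped. Its log2 fold change was 0.05 (SE 0.53), −0.24 without young sample 2 and −0.48 without old sample 3, and 0.46 and 0.31 without young sample 1 and old sample 2.

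The deacetylase genes Hdac1 and Hdac2 overlapped between the ages. Hdac1 had 209, 75.3 and 60.9 CPM in the young and 94.0, 115 and 121 CPM in the old samples. The old samples lay close together, between young sample 1 and the other young samples. The log2 fold change was −0.06 (SE 0.48), and 0.69 without young sample 1, 0.04 without old sample 1, −0.30 without young sample 2 and −0.37 without young sample 3. Hdac1 shares 40.0% of its words of 31 bases with other genes, mainly the copy Gm10093, which had 0 to 4 counts in the table, so its estimate is uncertain. Hdac2 had 48.6, 72.3 and 51.3 CPM in the young and 135, 57.8 and 76.0 CPM in the old samples, with old sample 1 far above the rest. Its log2 fold change was 0.64 (SE 0.44, edgeR adjusted p = 0.922), and 0.22 without old sample 1.

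The order of levels per kilobase put Gatad2b last in young cells, and its 0 in old ones, by which it was chosen, puts it last there too. In young cells Mbd2 and Hdac1 led with 34.3 ± 16.9 and 33.4 ± 23.6 CPM per kb (SD, n = 3), followed by Mta1, Mta2 and Chd4 at 22.0 ± 10.3, 21.3 ± 7.02 and 18.6 ± 2.81 CPM per kb. Gatad2a, Hdac2, Chd3 and Mbd3 had 15.7 ± 8.87, 12.8 ± 2.90, 11.6 ± 3.05 and 10.9 ± 10.2 CPM per kb, and Gatad2b had 3.01 ± 1.61. Without young sample 1 Hdac1 had 19.8 CPM per kb, below Mbd2, Mta2 and Gatad2a at 25.2, 22.9 and 20.8, and without young sample 3 Mbd3 had 5.03 CPM per kb. Neighbours in the order over all 3 young samples lay within their spread, Mbd3 and Gatad2b included. In old cells Mta2 led with 38.1 ± 7.17 CPM per kb and Hdac1 followed with 32.0 ± 4.17. Gatad2a reached 26.2 ± 2.75 CPM per kb there. Lengths are unions of all annotated exons, retained introns included, which for Gatad2b come to 11.4 kb.

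No single library was high or low for the whole complex. Old sample 3 had the highest level of 4 of the 10 members, and young samples 1 and 3 and old sample 1 had the highest of 2 each. The lowest level among the 9 partners fell in young sample 1 for 3 genes, in young sample 2 for 3, and in young sample 3, old sample 1 and old sample 2 for 1 each. The summed level of the 9 partners was 942, 692 and 751 CPM in the young and 879, 789 and 1113 CPM in the old samples. The sums overlapped, with old sample 3 the highest.

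**Figure D4:**
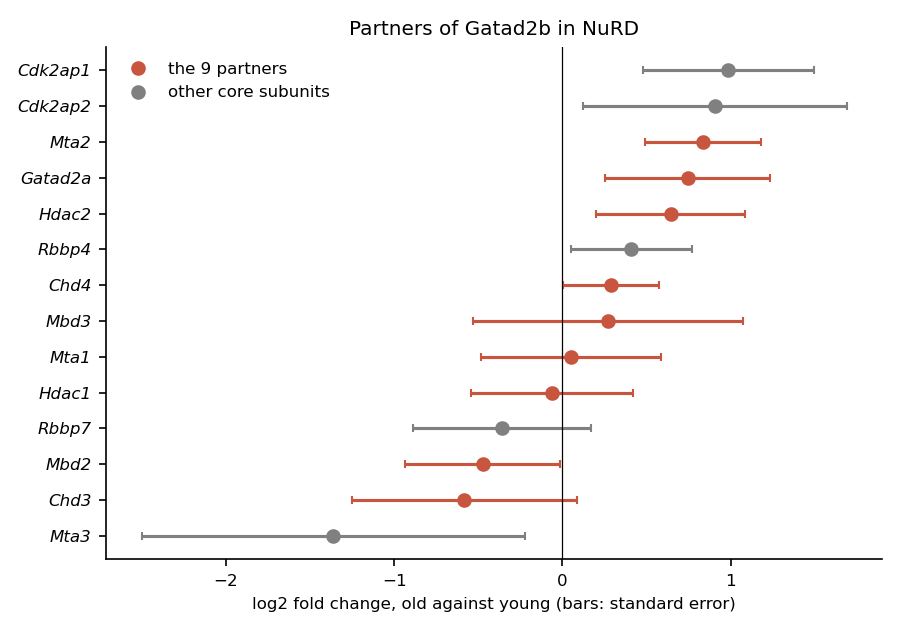
Log2 fold change, old against young, with its standard error (x axis) for the 9 partners of Gatad2b and the 5 other core subunits tested. None passed edgeR's test, and the partners run from −0.58 for Chd3 to 0.84 for Mta2.

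Of the 6 other core subunits, 5 could be tested, 0 passed, and 3 had a positive log2 fold change. Rbbp4 and Rbbp7 encode the histone chaperones. Rbbp4 had 54.4, 72.7 and 73.4 CPM in the young and 106, 75.1 and 85.6 CPM in the old samples, and the old ones were all higher, at a log2 fold change of 0.41 (SE 0.36, edgeR adjusted p = 0.944). Rbbp7 had 144, 90.2 and 44.1 CPM in the young and 38.1, 84.4 and 94.5 CPM in the old samples and overlapped. Rbbp4 and Rbbp7 share 22.05% and 16.46% of their words of 31 bases with other genes, so their estimates carry some uncertainty. Mta3, the third scaffold paralogue, had 32.8, 50.2 and 22.3 CPM in the young and 0.374, 24.5 and 16.1 CPM in the old samples. Old sample 1, with 5 counts of Mta3, came closest to the 0 of Gatad2b among the 5 subunits tested. The other old samples had 337 and 329 counts of Mta3. Cdk2ap1, a small subunit also called DOC-1, had 22.3, 48.2 and 54.8 CPM in the young and 107, 92.2 and 49.4 CPM in the old samples. It shares 60.0% of its words of 31 bases with other genes and is uncertain. Chd5, the ATPase of neurons and testis, had 35, 0 and 4 counts in the young and 0, 1 and 0 counts in the old samples. It did not pass the filter on low counts and was not tested. Its old counts were nearer to 0 than those of Mta3, but young sample 2 was at 0 too.

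Factors known to bind NuRD or bring it to DNA also gave 0 calls, over 12 tested of 15, with 4 positive and a median log2 fold change of −0.20. Zmynd8, a reader of histone marks, had 214, 130 and 158 CPM in the young and 140, 108 and 132 CPM in the old samples. Sall1, a zinc finger repressor, had 0.993, 210 and 282 CPM in the young and 3.97, 69.7 and 6.88 CPM in the old samples. The low values of Sall1 fell in both groups, in young sample 1 and old samples 1 and 3. Leukocyte and macrophage transcripts other than Mrc1 had their lowest sums in the same samples. Without Mrc1, which carried most of their sum in young sample 1 and old samples 1 and 3, the other 6 of 7 markers summed to 132, 1363 and 2176 CPM in the young and 117, 844 and 250.1 CPM in the old samples. Their part in the Sall1 values was not tested.

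Other complexes that use or oppose the same enzymes had 0 calls, as did all 15394 genes tested. In the Sin3 complex, which shares HDAC1 and HDAC2 with NuRD, 0 of 12 passed, with a median of −0.01 and 6 positive. Its scaffold Sin3a had 78.1, 70.1 and 87.0 CPM in the young and 171, 103 and 127 CPM in the old samples, a log2 fold change of 0.77 (SE 0.33, edgeR adjusted p = 0.888) with no overlap. Arid4b, Sap130 and Arid4a, the other Sin3 genes of highest level, had log2 fold changes of −0.04, 0.90 and 0.007 and overlapped. Of the Sin3 genes, 1 was higher and 1 lower in every old sample, beside 5.56% and 6.44% of all genes tested. Of the same genes, 3 were at 0 in at least 1 old sample, beside 12.1% of all genes tested, and 0 in all 3. In the CoREST complex, which pairs the deacetylases with the demethylase KDM1A, 0 of 10 passed, with a median of −0.08 and 4 positive. Kdm1a itself had 77.7 ± 4.36 CPM among the young and 73.3 ± 35.1 CPM among the old samples (SD, n = 3 each). Of the BAF remodelling complex, often an opponent of NuRD at enhancers, 0 of 14 passed, with a median of 0.24 and 10 positive. The ATPase gene Smarca4 had 140 ± 7.25 and 189 ± 35.1 CPM (SD, n = 3 each) with no overlap. Smarca2, Arid1a and Pbrm1, of higher mean level over all samples, had log2 fold changes of 0.06, 0.17 and 0.05 and overlapped. Of the 14 genes, 3 were higher and 0 lower in every old sample, beside 5.56% and 6.44% of all genes tested. Across these 3 complexes, 0 of 36 genes were at 0 in all 3 old samples.

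Plau and Plaur, the urokinase gene and its receptor gene, are known to be repressed by Chd4 in endothelium. Plau had 192, 124 and 98.4 CPM in the young and 331, 202 and 172 CPM in the old samples. Old sample 3 was below young sample 1, so the groups overlapped, and the log2 fold change of 0.77 (SE 0.37, edgeR adjusted p = 0.890) did not pass. Plaur had 3.97, 15.1 and 4.68 CPM in the young and 9.58, 1.02 and 11.4 CPM in the old samples and showed no order. Of 7 proliferation genes tested, 0 passed, with 5 positive, 2 negative and a median of 0.76. Mki67, a marker of cycling cells, had 19.6, 4.88 and 46.0 CPM in the young and 99.8, 39.4 and 134 CPM in the old samples, and overlapped. Mcm2, a replication helicase subunit gene, went the other way, with 10.7, 18.7 and 3.33 CPM in the young and 0, 3.27 and 0.0488 CPM in the old samples. Of the 8 genes in the list, 0 were above and 2, Mcm2 and Cdk1, were below the young range in every old sample. The shares over all genes tested were 5.56% and 6.44%. Cdk1, with at most 9 counts in a library, was too low to be tested.

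The genes around Gatad2b did not share its 0 as a block. Of the 5 protein-coding genes on each side, 9 passed the filter on low counts and 0 were called. Creb3l4, which did not pass, had 1, 2 and 0 counts in the young samples and 0 in each old one. Jtb had 49, 95 and 395 counts in the young and 2, 153 and 6 counts in the old samples. Dennd4b, whose start lies 28.0 kb before that of Gatad2b, had 13.5, 69.5 and 41.2 CPM in the young and 79.3, 28.6 and 33.5 CPM in the old samples. Crtc2, a coactivator of CREB, was higher in every old sample, at 47.8 ± 22.2 and 96.7 ± 15.1 CPM (SD, n = 3 each). Ints3, an Integrator subunit gene, was lower in every old sample, at 61.2 ± 33.8 and 24.0 ± 7.44 CPM. Of all genes tested, 5.56% had old above young and 6.44% old below young in this way. Slc27a3, the next gene downstream, had 16, 76 and 84 counts in the young and 0, 114 and 0 counts in the old samples.

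**Figure D5:**
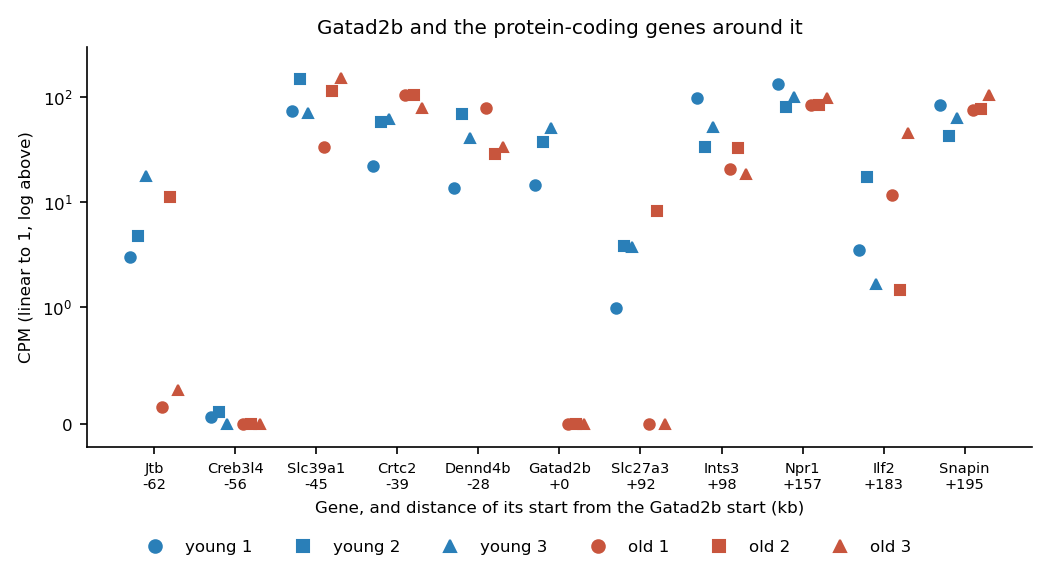
Level in CPM (y axis, linear up to 1 and logarithmic above) of Gatad2b and the 5 protein-coding genes on each side, in order along chromosome 3, with the distance of each start from the Gatad2b start in kb. Slc39a1, Crtc2, Dennd4b, Ints3, Npr1 and Snapin stay above 10 CPM in all old libraries, whereas Gatad2b is at 0. Creb3l4, with at most 2 counts in a young library, is also at 0 in all old ones.

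The genes whose log2 CPM was most like that of Gatad2b over the 6 samples, among 4846 tested genes with a mean from 0.5 to 2 times its own, were Gde1, Rps6ka1, Rsc1a1, Abhd10 and Aox3. Their Pearson correlations with it were 0.989, 0.980, 0.970, 0.962 and 0.961, as a description over 6 samples that share depth and scaling. Because Gatad2b was chosen by its 0 in old samples, genes lower in the old samples rank high here by construction. All 5 were lower in every old than in every young sample. Their likeness to Gatad2b is thus no test of shared regulation. Rps6ka1, a ribosomal S6 kinase gene, had 416, 941 and 814 counts in the young and 84, 85 and 79 counts in the old samples. Gde1, a glycerophosphodiester phosphodiesterase gene, had 285, 333 and 404 counts in the young and 76, 73 and 100 counts in the old samples. Of these 5 genes Rsc1a1 alone was at 0 in old samples.

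Summed transcripts of other cell types in the sorts differed between the ages for some types and overlapped for others. The 6 fibroblast markers summed to 5992, 4393 and 4004 CPM in the young and 1979, 1991 and 2135 CPM in the old samples. Col1a1 and Col1a2, collagen genes, made up most of that sum in every sample but old sample 1. Of the 6 markers 0 were called, and 4 were lower in every old than in every young sample, beside 6.44% of all genes tested. Dcn and Pdgfra overlapped, with Dcn at 625, 669 and 698 CPM in the young and 767, 364 and 454 CPM in the old samples. All 6 markers were present in every old sample. The 7 leukocyte and macrophage markers summed to 533, 1815 and 2538 CPM in the young and 796, 1258 and 989 CPM in the old samples. Mrc1, a mannose receptor gene, was 401, 452 and 362 CPM of this in the young and 679, 414 and 739 CPM in the old samples, and was the single marker with a positive log2 fold change. The other 6 had negative ones, 0 of the 7 were called, and all 7 overlapped. Without Mrc1 the sum was 132, 1363 and 2176 CPM in the young and 117, 844 and 250.1 CPM in the old samples. Pericyte and smooth muscle markers summed to 615 to 928 CPM in young and 853 to 1950 CPM in old samples, blood endothelial markers to 569 to 725 and 1133 to 1618 CPM, and erythroid markers to 57.3 to 288 and 2.47 to 462 CPM. The part of these cell types in the Gatad2b values was not tested. In such bulk samples, fewer cells that express a gene and less RNA per cell cannot be told apart.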

How the data were processed

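Per the submitters' processing notes, FastQC, Salmon and the mouse build mm10 were used, with no version or role. The authors deposited estimated counts per gene for 6 samples. They were deposited as whole numbers and entered the fits unchanged. Annotation, strandedness and the step from transcripts to genes are not stated. Of 22964 Ensembl identifiers, 22738 had a symbol in GENCODE M21 (GRCm38, the assembly mm10 denotes), which also gave positions, exon lengths and transcripts. Positions are 1-based.

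Groups came from the sample titles. The test of age was edgeR's quasi-likelihood test (version 4.0.16, R 4.3.3), robust and two-sided, on TMM-scaled counts after filterByExpr (minimum count 10, total 15), with Benjamini-Hochberg adjustment at 0.05 over the 15394 genes left. Log2 CPM used a prior count of 2. Alternatives were other scalings and filters, DESeq2 1.42.0, limma-voom (limma 3.58.1), the sample number as a block, and leaving out each library. The fit was tested on simulated data, with fold changes larger than those of any partner. That simulation does not show whether changes of the partners' size could be called. All 10 members passed the filter. A count of 0 was read with a floor of 3 counts per library. Words of 31 bases were searched on both strands of all GENCODE M21 transcripts.

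The members and all gene lists were chosen with earlier results of these data known. The rule for names was all members, up to 4 genes of a list by mean CPM, 5 protein-coding neighbours on each side, and 5 genes for each measure of likeness to Gatad2b. Outside it, and chosen after their values were seen, Chd5, Mcm2, Cdk1, Pdgfra and 4 of the 8 lymphatic markers are named. Depth was 14285794 to 21043945 counts per library.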

Additional observations from a re-analysis of the deposited data

How the results depend on the processing

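The bound for Gatad2b, which the tests do not enter, ran from −7.82 to −7.06 log2 units, old against young, with the scaling, the filter and the library left out. Of the 9 partners, 0 were called under any alternative. Over all genes, the count of calls was 0 by edgeR, 130 by DESeq2 and 3 by limma-voom, and 0 to 1 with 1 library left out. Genes at 0 in all old and above 0 in all young samples numbered 304 to 454 with 1 library left out. There, fewer old samples had to be at 0 or fewer young samples above 0. The partners' median log2 fold change ran from −0.0083 to 0.421 with 1 library left out, the lowest without young sample 2. Library size as the only scaling moved the median of all genes to −0.12 and gave Mta1 −0.068. Hdac1 had 0.24 in limma-voom. With 1 library left out, Hdac1 ran from −0.37 to 0.69, Mbd3 from −0.13 to 1.37 and Mta1 from −0.48 to 0.46. The cause was not tested. Gatad2a, Chd3, Chd4, Hdac2, Mbd2 and Mta2 kept their direction in all 13 alternatives. The correlation of deviations between samples of the same number was 0.08, 0.05 and −0.01. Between samples of different numbers it ran from −0.09 to 0.06. With so few samples these values cannot decide whether the sample numbers pair the groups. With the sample number as a replicate block, edgeR again called 0 genes and 0 partners, the partners' median was 0.28 and Hdac1 had 0.17. The floor for the old level of Gatad2b, 0.146 to 0.224 CPM, holds for counting error only and leaves out the spread between libraries.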
